A study of Mus musculus with 40 samples.

Results

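The microRNAs described here are 4 mature strands from 3 genes that lymphocytes are known for: mmu-miR-150-5p, mmu-miR-342-3p, mmu-miR-342-5p and mmu-miR-155-5p. They were chosen by name, as the rows of the count table that carry these names, and make up 4 of the 1915 mature mouse microRNAs listed there. Only 2 of the 4, miR-150-5p and miR-342-3p, were among the 105 abundant microRNAs, those with more than 100 reads in at least 20 of the 40 libraries. The other 2 were tested among 345 microRNAs with more than 1 read in at least 20 libraries.

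The study followed memory in aging mice and sequenced small RNA from their total blood at 12, 13.5, 15 or 16.5 months, with 10 libraries per age. Blood was drawn behind the eye every 6 weeks, and the first draw, at 12 months, preceded all behavioral work. In trained mice each of the 3 later draws followed water maze training. The paper also bled untrained aging mice as a control, and the labels do not say which group these libraries come from. No agent or engineered allele is named for these groups. The labels give neither strain nor sex, and the paper's methods name male wild-type C57B/6J mice. Among these libraries age, repeated bleeding and any repeated training advanced together and cannot be told apart. The labels name no sequencing run, so age and run cannot be told apart either. Counts of all 4 strands come from whole blood, in which fewer cells of a type and less RNA per cell cannot be told apart.

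MicroRNAs are short RNAs cut from a hairpin precursor, and either arm of the hairpin (5p or 3p) can be loaded into an Argonaute protein and pair with messenger RNAs through its seed, bases 2 to 8. miR-150-5p is abundant in mature B, T and NK cells and restrains the transcription factor Myb. miR-342 lies within Evl, a gene for an actin regulator, and is known from B cells and other leukocytes. miR-155-5p, made from the noncoding transcript of Mir155hg, is induced when lymphocytes and macrophages are activated.

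The mature strands are printed because they hold the seeds, in capitals, which differ between the 3 strands. The sequences are RefSeq's, on GRCm38.
mmu-miR-342-3p: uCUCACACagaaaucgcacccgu
mmu-miR-342-5p: aGGGGUGCuaucugugauugag
mmu-miR-155-5p: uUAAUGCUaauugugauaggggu
No other entry among the 1679 distinct mature names of this RefSeq set has the seed of any of these 3 strands. The set lacks some microRNAs of the count table, miR-150-5p among them, so the search was not complete. The Mir342 hairpin, 99 bases long, shows how the 2 strands compared below lie on 1 precursor, with both arms in capitals.
Mir342: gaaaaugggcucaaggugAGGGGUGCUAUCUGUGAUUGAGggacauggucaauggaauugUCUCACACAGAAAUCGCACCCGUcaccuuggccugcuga
On GRCm38 with the GENCODE M21 annotation, Mir342 spans chr12:108658620-108658718 on the plus strand, in an intron of Evl, which is read from the same strand. Mir155 spans chr16:84714140-84714204 on the plus strand, in an exon of the long noncoding gene Mir155hg. Mir150 spans chr7:45121757-45121821 on the plus strand and overlaps no other annotated gene.

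Depth and the share of red cell microRNAs differed between ages. Library totals ran from 2469196 to 21386209 counts, with medians of 12497974, 12505002, 6196820 and 8771193 at 12, 13.5, 15 and 16.5 months. The red cell microRNA miR-486 took most reads, and the share of counts outside it (its duplicate rows entered once) had medians of 14.0%, 12.7%, 8.54% and 13.7% at the 4 ages. Together the 4 members made up medians of 0.0531%, 0.0849%, 0.0359% and 0.0738% of a library. This total, and that behind the shares of microRNA lists below, also has the duplicate miR-486 rows entered once. Libraries are numbered within an age in column order, and 1 of them stood apart in its connectivity to the rest, library 7 at 16.5 months, which was also the shallowest. The libraries of an age were separate libraries by their counts: a chi-square over its degrees of freedom was at least 19.4 in each of 180 pairs. The paper describes a longitudinal study in which the same mice were bled at each age, so libraries of different ages may not be independent. Whether a number stands for 1 mouse at all 4 ages is not stated. The main fit and the ratio tests took all libraries as independent, so p-values measure the spread between libraries and not the change within a mouse.

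Across age, miR-342-3p rose by the last time point, and miR-150-5p rose from 12 to 16.5 months with a wide spread. The level of miR-342-3p at 16.5 months was 2.14-fold that at 12 months (log2 fold change 1.10, SE 0.19, n = 10 per age), and that of miR-150-5p was 1.81-fold (log2 fold change 0.86, SE 0.30). Neither of the sparse strands, miR-342-5p and miR-155-5p, passed the test between any ages. The 2 calls over age stand against a background in which 61.0% of the abundant microRNAs were called over age, so passing that test did not set the members apart.

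**Figure D1:**
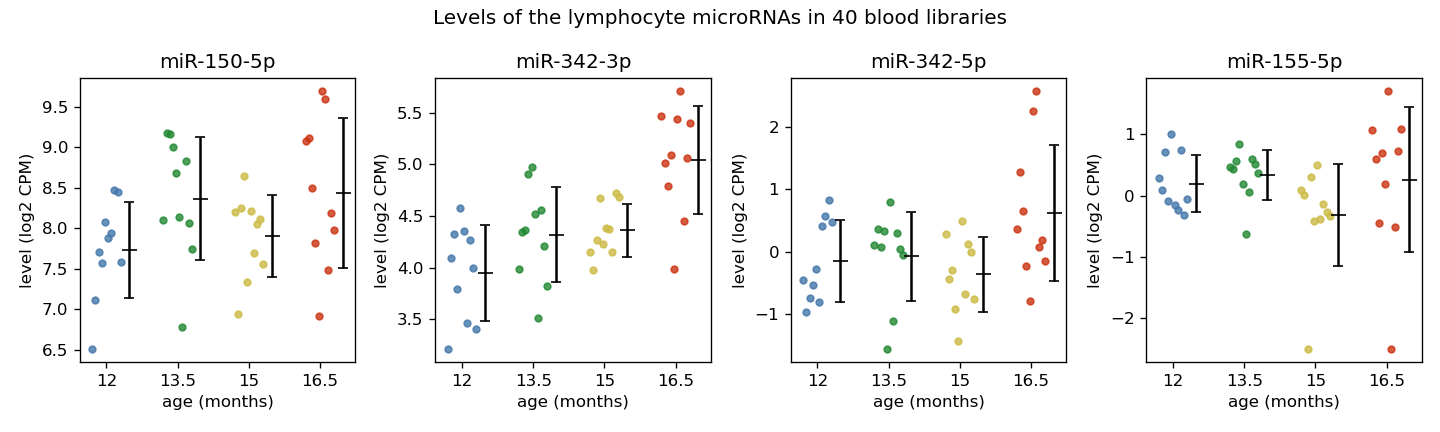
Level in log2 CPM (scaled by TMM) against age in months for each of the 4 microRNAs, 1 point per library and 10 libraries per age, with the mean and SD as the black mark and bar. For miR-342-3p, 8 of the 10 libraries at 16.5 months lie above every library at 12 months, whereas the ages overlap widely for the other 3 microRNAs.

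miR-342-3p was counted in every library. At 12 months its counts ran from 113 over a median of 233.5 to 484, at 13.5 months from 104 over 280 to 489, at 15 months from 30 over 96.5 to 160, and at 16.5 months from 72 over 231.5 to 754. Raw counts were lowest at 15 months, the age with the lowest library totals. Scaled to depth, the level was 3.95 ± 0.46 log2 CPM at 12 months, 4.32 ± 0.46 at 13.5 months, 4.36 ± 0.26 at 15 months and 5.04 ± 0.52 at 16.5 months (SD, n = 10 each). The means thus ran upward with age, and of the steps between neighbouring ages only the last, from 15 to 16.5 months, passed the test.

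The difference over the 4 ages had an adjusted p of 3.26e-05 by edgeR's quasi-likelihood test with Benjamini-Hochberg adjustment over the 105 microRNAs. From 12 to 16.5 months the rise (log2 fold change 1.10, adjusted p 5.71e-05) was seen in 10 of 10 libraries relative to the 12-month mean, and 8 of them lay above the highest 12-month library, where 23.8% of all abundant microRNAs were called. From 13.5 to 16.5 months it rose by 0.73 on the log2 scale (SE 0.19, adjusted p 0.00185), with 9 of 10 libraries above the earlier mean and 40% of all microRNAs called. From 15 to 16.5 months it was 0.72 (SE 0.19, adjusted p 0.00459), again with 9 of 10 libraries above the earlier mean, and 28.6% of all were called. The 3 earlier steps did not pass: 0.37 (SE 0.19, adjusted p 0.138) from 12 to 13.5 months, 0.37 (SE 0.19, adjusted p 0.171) from 12 to 15 months and 0.00 (SE 0.19, adjusted p 0.982) from 13.5 to 15 months, where 29.5%, 23.8% and 47.6% of all abundant microRNAs were called.

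The 16.5-month calls of miR-342-3p held whichever library was left out. Leaving out any 1 of the 40 kept the log2 fold change against 12 months between 1.02 and 1.20, and no leave-one-out fit lost a call of this microRNA between ages. When all libraries were thinned to the smallest total, which leaves few reads of this microRNA, the call from 12 to 16.5 months was lost (log2 fold change 0.96, adjusted p 0.0515), as was that from 15 to 16.5 months (0.85, adjusted p 0.0938). With library totals alone as the scaling, the call from 13.5 to 16.5 months was lost (0.56, adjusted p 0.0889). A fit of the 12- and 15-month libraries alone called a rise between those ages (0.49, adjusted p 0.0276 by edgeR), where 26.7% of all were called.

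**Figure D2:**
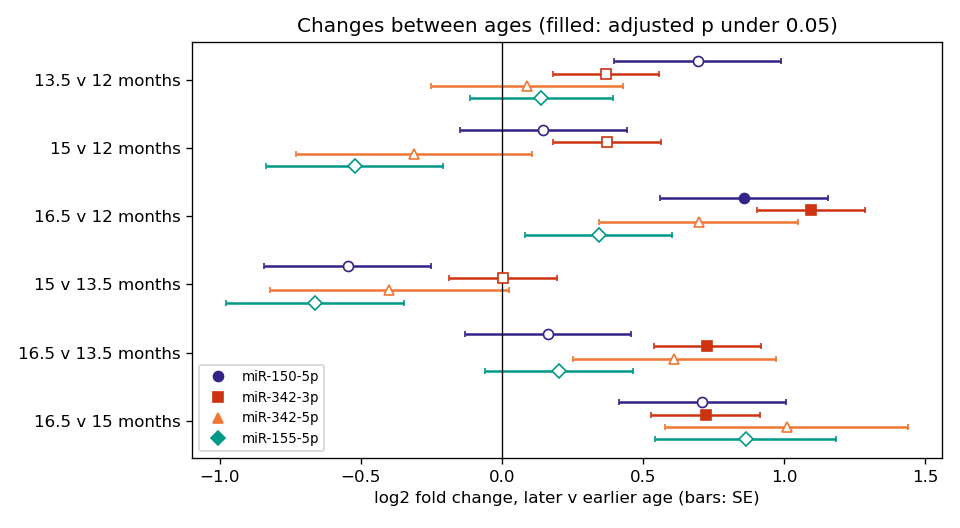
Log2 fold change of the later against the earlier age for the 6 pairs of ages, with the SE as the bar, from the fit over abundant microRNAs for miR-150-5p and miR-342-3p and from the fit with the low filter for miR-342-5p and miR-155-5p. Filled symbols have an adjusted p under 0.05: miR-342-3p in the 3 pairs that end at 16.5 months and miR-150-5p at 16.5 against 12 months.

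miR-150-5p was the most abundant of the 4, at rank 23 of 105 by mean level and a mean of 0.0314% of all counts. miR-342-3p had rank 78 and 0.0024%. In these shares all counts include both of the duplicate miR-486 rows, unlike the joint share of the 4 members above. Its counts at 12 months ran from 1245 over a median of 4005.5 to 8956, at 13.5 months from 1143 over 4906.5 to 9537, at 15 months from 441 over 1047.5 to 1968, and at 16.5 months from 1073 over 3147.5 to 5357. The ranges of the 4 ages overlapped in every pair. Its level was 7.73 ± 0.59 log2 CPM at 12 months, 7.90 ± 0.51 at 15 months, 8.37 ± 0.75 at 13.5 months and 8.43 ± 0.92 at 16.5 months (SD, n = 10 each), and no neighbours in this order passed the test.

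Over the 4 ages miR-150-5p had an adjusted p of 0.0262 by edgeR. The rise from 12 to 16.5 months passed (log2 fold change 0.86, SE 0.30, adjusted p 0.0273), with 8 of 10 libraries above the 12-month mean and 5 above the highest 12-month library. Values from 12 to 13.5 months (0.69, SE 0.30, adjusted p 0.0742) and from 15 to 16.5 months (0.71, SE 0.30, adjusted p 0.0606) did not pass. The first passed without library 8 or 9 at 12 months or library 7 at 13.5 months (0.78 to 0.79, adjusted p 0.024 to 0.0456), and the second without library 7 at 13.5 months, 4 at 15 months or 5 or 8 at 16.5 months (0.69 to 0.81, adjusted p 0.0324 to 0.0498). Smaller values that did not pass either were 0.15 (SE 0.29, adjusted p 0.749) from 12 to 15 months, -0.55 (SE 0.30, adjusted p 0.12) from 13.5 to 15 months and 0.16 (SE 0.29, adjusted p 0.685) from 13.5 to 16.5 months.

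Single libraries decided the call of miR-150-5p. The 2 highest libraries at 16.5 months, libraries 6 and 7, were at 9.69 and 9.60 log2 CPM. Without library 6 the log2 fold change from 12 to 16.5 months was 0.69 (adjusted p 0.0789) and the adjusted p over age was 0.0586. Without library 7 these values were 0.71 (adjusted p 0.0719) and 0.0578. As plain shares of all counts, with both miR-486 rows in the total, libraries 6 and 7 held 0.0388% and 0.0435% miR-150-5p. Both were close to the 16.5-month mean of 0.0384% ± 0.0198 (SD, n = 10), whereas their TMM-scaled levels were the highest of that age. With the number that recurs in the column names at each age as a block, neither call passed (adjusted p 0.0648 over age and 0.0742 from 12 to 16.5 months by edgeR), and what that number stands for is not stated.

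The scaling mattered most at 15 months. With library totals alone, the median log2 fold change over all 105 microRNAs moved to -0.84 from 12 to 15 months and to 0.64 from 15 to 16.5 months, against -0.06 and 0.05 with TMM. Under that scaling miR-150-5p fell from 12 to 15 months (log2 fold change -0.64, adjusted p 0.0252), a drop smaller than the median of all, and the sign of miR-342-3p turned in the same pair (-0.41, adjusted p 0.134). The direction from 12 to 16.5 months was upward for both microRNAs under each of the 16 other settings, from 0.36 to 0.92 for miR-150-5p and from 0.82 to 1.13 for miR-342-3p. The call of miR-150-5p was lost in 9 of those 16 settings, with adjusted p from 0.00149 to 0.408 over all of them. The fit with the low filter, not among the 16, did not call miR-150-5p from 12 to 16.5 months either (0.79, adjusted p 0.0591 by edgeR).

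Libraries of 1 age also spread further for miR-150-5p than for most microRNAs. Its SD within ages, pooled over the 4 ages, was 0.713 on the log2 CPM scale, the 9th largest of 105, against 0.436 for miR-342-3p (rank 42) and a median of 0.371 over all. Across the 40 libraries, the level most like that of miR-150-5p was that of miR-125a-5p (Spearman rho 0.822, and 0.827 after subtracting each age's mean). The equal rows miR-486a-3p and miR-486b-3p followed (rho 0.753). They are red cell microRNAs, as is miR-451a, which had a rho of -0.778, so red cell microRNAs went both ways. miR-342-3p ranked 15 in that order (rho 0.608), while the myeloid microRNA miR-223-3p had a rho of -0.398. For miR-342-3p the most alike levels were those of miR-150-5p (0.608), miR-191-5p (0.498) and miR-146a-5p (0.477). Within ages the last 2 dropped to 0.211 and 0.308. These coefficients describe 40 libraries that share one scaling and are given without a test.

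Base composition ran along with the level of miR-150-5p. No sequence of miR-150-5p was available, so its own GC content is not given. Its closest match, miR-125a-5p, had a GC content of 50.0% against a median of 45.6% over the abundant microRNAs with a sequence. That of miR-342-3p was higher still, at 52.2%. Over the 90 of 105 microRNAs with a sequence (85.7%), GC percent correlated with the within-age rho of a microRNA with miR-150-5p (Pearson's r 0.550, Spearman's rho 0.539, across microRNAs, which are not independent replicates). The same correlation for miR-342-3p was 0.208 (Spearman's rho 0.220, 89 microRNAs). For each library a GC slope was then computed, the change in log2 CPM of the other microRNAs per percentage point of GC. Its medians were -0.0152, 0.0183, 0.0039 and -0.0167 at 12, 13.5, 15 and 16.5 months.

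Within each age, libraries with a higher GC slope had more miR-150-5p, with Pearson's r of 0.754, 0.745, 0.719 and 0.816 at the 4 ages (n = 10 libraries each, permutation test with 100000 resamples, adjusted p 0.0317, 0.0523, 0.034 and 0.0278 over 12 correlations). Spearman's rho was 0.697, 0.648, 0.770 and 0.855 (permutation test, adjusted p 0.101, 0.101, 0.0775 and 0.0389). After leaving out the 2 libraries farthest from the median slope, r was 0.818, 0.683, 0.587 and 0.637. For miR-342-3p the same r was -0.061, 0.264, 0.035 and 0.364, and none passed (permutation test, adjusted p 0.399 or more; Spearman's rho -0.079, 0.103, -0.079 and 0.309, adjusted p 0.515 or more; r without 2 libraries 0.271, 0.011, -0.213 and -0.032). Between the 2 microRNAs r was 0.549, 0.776, 0.443 and 0.804 (permutation test, adjusted p 0.187, 0.0317, 0.299 and 0.0278), but 0.376, 0.702, -0.031 and 0.660 without 2 libraries, and Spearman's rho of 0.491, 0.648, 0.358 and 0.685 did not pass at any age (permutation test, adjusted p 0.265, 0.101, 0.468 and 0.101).

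**Figure D3:**
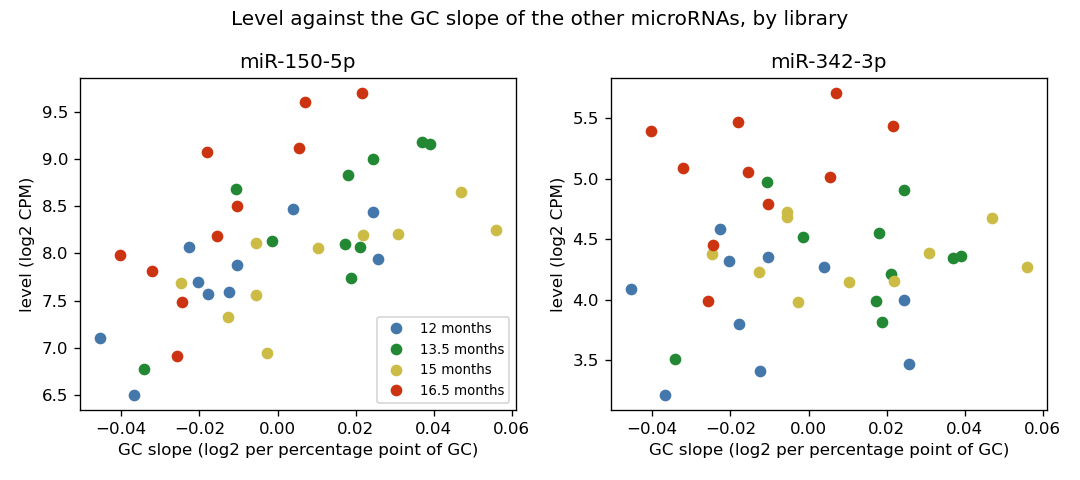
Level in log2 CPM against the GC slope of the library, the change in log2 CPM per percentage point of GC over the other abundant microRNAs, for miR-150-5p (left) and miR-342-3p (right), 1 point per library and colored by age. Within ages miR-150-5p rises with the slope (r from 0.719 to 0.816), whereas r for miR-342-3p runs from -0.061 to 0.364 and did not pass at any age.

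With the GC slope as a covariate, a setting chosen after seeing these values, miR-342-3p kept its rise from 12 to 16.5 months (log2 fold change 1.09, adjusted p 9.22e-06 by edgeR) and that of miR-150-5p was 0.82 (adjusted p 0.00149). From 13.5 to 16.5 months miR-150-5p then reached 0.66 (adjusted p 0.0091), and from 15 to 16.5 months 1.12 (adjusted p 2.82e-05). From 12 to 13.5 months, where the slope's median was highest at the later age, its value was 0.15 (adjusted p 0.568) in place of 0.69, and from 12 to 15 months it was -0.31 (adjusted p 0.264). The covariate raised calls throughout: 85.7% of the 105 were then called over age, 48.6% at 16.5 against 12 months, 60.0% at 16.5 against 13.5 months and 56.2% at 16.5 against 15 months. The part of base composition in the age differences was not tested beyond this covariate.

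miR-342-5p, the strand opposite miR-342-3p on the hairpin printed above, had few reads. Counts ran from 3 over a median of 10.5 to 33 at 12 months, from 1 over 12.5 to 22 at 13.5 months, from 1 over 2.5 to 7 at 15 months and from 5 over 11.5 to 15 at 16.5 months. Its level was -0.15 ± 0.66, -0.07 ± 0.72, -0.37 ± 0.60 and 0.62 ± 1.10 log2 CPM at the 4 ages (SD, n = 10 each). The ages overlapped, and over age the adjusted p was 0.172 by edgeR with the low filter, where 39.1% of 345 were called. Its value from 15 to 16.5 months was 1.01 on the log2 scale (SE 0.43, adjusted p 0.115, unadjusted p 0.0237), and from 12 to 16.5 months 0.70 (SE 0.35, adjusted p 0.202). At this depth a change of the size seen in miR-342-3p from 12 to 16.5 months lies within 2 SE of that value, so the strands were not shown to differ.

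miR-155-5p had as few reads, from 7 over a median of 13.5 to 38 at 12 months, from 3 over 18.5 to 30 at 13.5 months, from 0 over 3.5 to 6 at 15 months and from 0 over 10.5 to 35 at 16.5 months. In library 3 at 15 months and library 7 at 16.5 months it had no read, which allows up to 1.91 and 2.17 CPM at a limit of 3 counts. Its level was 0.20 ± 0.47, 0.34 ± 0.40, -0.31 ± 0.83 and 0.26 ± 1.19 log2 CPM at the 4 ages (SD, n = 10 each), and the ranges overlapped in every pair. The adjusted p over age was 0.13 by edgeR. The largest values were 0.86 from 15 to 16.5 months (SE 0.32, adjusted p 0.0696, unadjusted p 0.01) and -0.66 from 13.5 to 15 months (SE 0.32, adjusted p 0.122, unadjusted p 0.0423).

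No pair of ages gave a call for miR-342-5p or miR-155-5p, while 15.7%, 11.3% and 13.9% of the 345 microRNAs were called at 13.5, 15 and 16.5 against 12 months, 27.0% and 21.4% at 15 and 16.5 against 13.5 months and 12.5% at 16.5 against 15 months. At an unadjusted p under 0.05, 1 of the 2 passed at 15 against 13.5 months, where 36.8% of the 345 did, and both at 16.5 against 15 months, where 27.5% did. DESeq2 called 1 of the 2, miR-155-5p, in the latter pair (log2 fold change 0.86, adjusted p 0.0476) along with 16.5% of the 345, and leaving out library 7 at 16.5 months, where it had no read, also gave a call (0.92, adjusted p 0.0358). The same pair passed without library 7 at 13.5 months or 3 or 8 at 16.5 months (0.90 to 0.96, adjusted p 0.0431 to 0.0499).

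Reads came mostly from 1 arm of each hairpin. Over all libraries 96.0% of the miR-342 reads were the 3p strand (9738 against 403 reads, exact 95% interval 95.6% to 96.4%, counting error only). The 5p strand made up 99.86% of the miR-150 reads (132603 against 190) and 99.0% of the miR-155 reads (520 against 5, exact 95% interval 97.8% to 99.7%). Within a library the log2 ratio of miR-342-3p over miR-342-5p averaged 4.37 ± 1.01, 4.62 ± 0.92, 4.83 ± 0.77 and 4.57 ± 0.97 at the 4 ages (SD, n = 10 each). No pair of ages differed in it (two-sided permutation test with 100000 resamples, smallest adjusted p 0.413 over 24 comparisons of 4 ratios), and the largest difference was 0.46 at 15 against 12 months. The minor strand miR-150-3p had an adjusted p of 0.852 over age by edgeR, and miR-155-3p, with 5 reads in 5 libraries, was not tested.

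Ratios within a library need no scaling between libraries. miR-342-3p over miR-223-3p, the microRNA typical of neutrophils and monocytes, was the only one of the 4 ratios with a difference past the threshold: its log2 ratio averaged -0.69 ± 0.81 at 12 months and 0.60 ± 0.64 at 16.5 months, a difference of 1.29 (two-sided permutation test, adjusted p 0.0115), with 10 of 10 libraries at 16.5 months above the 12-month mean. At 13.5 and 15 months it averaged 0.22 ± 0.74 and 0.10 ± 0.54. miR-150-5p over miR-223-3p averaged 3.10 ± 1.04, 4.28 ± 0.97, 3.64 ± 0.90 and 4.0 ± 1.14, and its largest difference, 1.18 at 13.5 against 12 months, did not pass (permutation test, adjusted p 0.0967). miR-342-3p over miR-150-5p averaged -3.79 ± 0.52, -4.06 ± 0.49, -3.54 ± 0.46 and -3.40 ± 0.59. Its largest difference, 0.66 at 16.5 against 13.5 months, did not pass either with all libraries (permutation test, adjusted p 0.0967). Without library 7 at 13.5 months, the lowest of that age in miR-150-5p, 5 of the 24 comparisons passed in place of 1. Among them miR-342-3p over miR-150-5p then differed at 16.5 against 13.5 months by 0.74 (permutation test, adjusted p 0.0434) and at 15 against 13.5 months by 0.60 (permutation test, adjusted p 0.0455). At 13.5 against 12 months miR-150-5p and miR-342-3p over miR-223-3p passed too (1.38 and 1.03, permutation test, adjusted p 0.0346 and 0.0434).

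**Figure D4:**
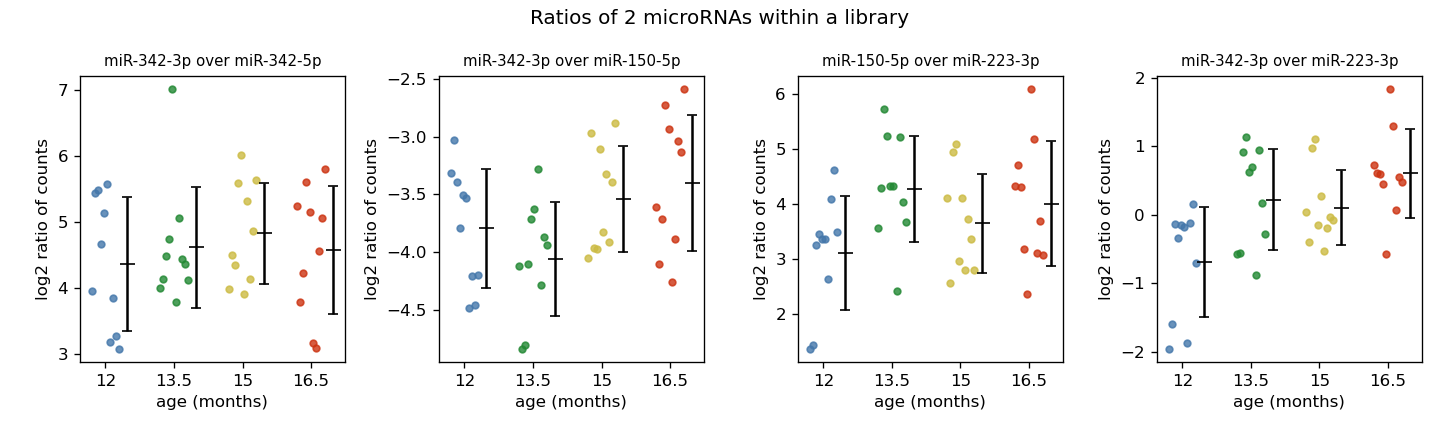
Log2 ratio of the counts of 2 microRNAs within a library against age in months, 1 point per library and 10 per age, with the mean and SD in black, for the 4 ratios tested. The ratio of miR-342-3p over miR-223-3p averages -0.69 at 12 months and 0.60 at 16.5 months, and the ratio of the 2 miR-342 strands averages from 4.37 to 4.83 with no difference past the threshold.

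Other microRNAs known from lymphocytes moved in both directions. Of 18 such microRNAs, 10 were abundant enough to test and 7 were called over age, against 61.0% of all 105. From 12 to 16.5 months 3 of the 10 rose and 1 fell, with a median log2 fold change of 0.25 against -0.03 over all 105, of which 23.8% were called. With the low filter the sign of that median turned: 16 of the 18 were tested, 2 rose and 3 fell from 12 to 16.5 months, and the median was -0.26 against -0.07 over the 345, of which 13.9% were called. Over age 9 of these 16 were called, against 39.1% of the 345. Over age, miR-181a-5p and miR-181b-5p, which tune receptor signaling in developing T cells, had the lowest p of the list. miR-181a-5p peaked at 13.5 months (log2 fold change 1.25 against 12 months, SE 0.15, adjusted p 2.22e-08) and was 0.27 (SE 0.15, adjusted p 0.189) at 16.5 against 12 months. miR-181b-5p rose by 0.96 at 13.5 months (SE 0.15, adjusted p 3.20e-06) and was 0.50 higher at 16.5 than at 12 months (SE 0.15, adjusted p 0.015). miR-146a-5p, a brake on inflammatory signaling, rose by 0.73 from 12 to 16.5 months (SE 0.27, adjusted p 0.0432). The study chose miR-181a-5p and miR-146a-5p for its own signature with these libraries in use, so their changes are not independent evidence of the list's direction. In the other pairs 3 of the 10 rose and 1 fell at 13.5 against 12 months (29.5% of the 105 called), 0 were called at 15 against 12 months (23.8%), 1 rose and 3 fell at 15 against 13.5 months (47.6%), 2 rose and 3 fell at 16.5 against 13.5 months (40%), and 3 rose and 0 fell at 16.5 against 15 months (28.6%).

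Markers of the other blood cells were also read. Of the 3 myeloid microRNAs, 2 were tested and 0 were called over age, where 61.0% of all 105 were called. By edgeR, miR-223-3p was lower at each later age than at 12 months, and of the 6 pairs only 13.5 against 12 months was called (-0.59, SE 0.21, adjusted p 0.0281). It was -0.39 (SE 0.21, adjusted p 0.205) at 15 and -0.26 (SE 0.21, adjusted p 0.36) at 16.5 against 12 months. In the last pair miR-21a-5p was -0.11 (SE 0.25, adjusted p 0.735). The myeloid list held medians of 0.0429%, 0.0279%, 0.0278% and 0.0422% of a library at the 4 ages. Of the pan-leukocyte pair, miR-142a-5p was abundant enough (adjusted p over age 0.0652) and was 0.37 higher at 15 than at 13.5 months (SE 0.13, adjusted p 0.0209). The other, miR-142a-3p, was called over age with the low filter (adjusted p 7.67e-05): it fell from 12 to 13.5 months (log2 fold change -1.69, SE 0.31, adjusted p 6.53e-05), was 1.74 higher at 15 than at 13.5 months (SE 0.32, adjusted p 3.92e-05) and 1.23 higher at 16.5 than at 13.5 months (SE 0.31, adjusted p 0.00321), and was -0.46 (SE 0.30, adjusted p 0.342) at 16.5 against 12 months. The pair held medians of 0.644%, 0.521%, 0.439% and 0.514% of a library. Of 7 erythroid microRNAs, 6 were tested and 3 called over age, against 61.0% of all 105. These were miR-144-5p and the equal rows miR-486a-5p and miR-486b-5p, which hold the same counts. At 16.5 against 12 months 0 of the 6 were called, against 23.8% of all 105. Erythroid microRNAs took a median of 87.7%, 88.1%, 92.7% and 87.6% of a library at the 4 ages, with a range of 83.5% to 96.6%. The platelet and endothelial pair, miR-126a-3p and miR-126a-5p, fell below the filter for abundant microRNAs. With the low filter miR-126a-5p was called over age (adjusted p 0.0189 by edgeR) and miR-126a-3p was not (0.0741), where 39.1% of the 345 were called. Their part in the values of the 4 members was not tested.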

How the data were processed

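Total blood of 10 libraries per age (12, 13.5, 15 and 16.5 months) was processed by the authors with the TruSeq small RNA kit and sequenced as 50 bp single-end reads. Per the authors' methods, reads were checked with FastQC 0.11.5, and mature microRNAs of miRBase were quantified on mm10 with miRDeep2, summing those that arise from several loci. The authors deposited raw counts, the unit used here. A second deposited table, a normalized signal for 105 microRNAs, was not used. Reads of the equal rows miR-486a and miR-486b are entered 2 times, which enlarges the total behind each CPM value and behind the shares of single microRNAs.

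The main test was edgeR's (version 4.0.16, under R 4.3.3; TMM, glmQLFit, glmQLFTest), in 1 fit of all 40 libraries with age as a factor. The main fit held microRNAs counted more than 100 times in at least 50% of libraries. A fit with more than 1 read served the members, strands and listed microRNAs below that filter, and the lymphocyte list as a whole. The adjustment was Benjamini-Hochberg over all microRNAs of a fit, the threshold 0.05, and each SE was obtained as the size of the log2 fold change divided by the root of its F statistic. A prior count of 2 entered the log2 CPM levels. Ratios are log2 of counts plus 0.5, tested by permutation with 100000 resamples. Intervals of counts cover counting error only, since reads carry no molecular identifiers. Alternatives were DESeq2 1.42.0, limma 3.58.1 and other scalings, filters, covariates and leave-one-out fits. The edgeR step was tested on simulated data. The columns name ages but not the replicate numbers of the labels.

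The genes named are the 4 members, their partner strands, the 2 of each list with the smallest p over age and the 3 with the levels most like each abundant member. Members and lists were chosen with earlier results of these data known. miR-451a, and the GC content, the share outside miR-486 and the block as covariates, were added after seeing the data.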

Additional observations from a re-analysis of the deposited data

Results flagged for a closer look

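Of 32 groups of 10 libraries (4 microRNAs and 4 ratios at 4 ages), 3 held a library whose gap to its nearest neighbour was large for the range of its group, and chance flags about 1 in 20 groups. The lowest library for miR-155-5p at 15 months, library 3, was at -2.50 log2 CPM with 0 reads. The lowest for miR-155-5p at 16.5 months, library 7, was also at -2.50 log2 CPM with 0 reads and had the smallest total of all, 2469196 counts. Both values are set by the prior count of 2 that stands in for a missing read. The log2 ratio of miR-342-3p over miR-342-5p at 13.5 months reached 7.02 in library 5, against 5.07 in the next library.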

How the results depend on the processing

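Of the 2 abundant members, both were called over age and at 16.5 against 12 months, 1 at 16.5 against 13.5 and at 16.5 against 15 months, and 0 in the other 3 pairs. Over age, 1 remained without the library of low connectivity. At 16.5 against 12 months, miR-342-3p alone remained called under limma voom, library totals alone and RUVs (a removal of unwanted variation) with 1 or 2 factors. The same held with the log2 library total or the share outside miR-486 as a covariate, without the low-connectivity library and with no filter. After thinning miR-150-5p alone remained called, and miR-342-3p was lost. At 13.5 against 12 months, 1 was called under voom and under the miR-486 covariate. At 15 against 12 months, 1 was called in each of 2 settings, but not the same one. Under library totals alone it was miR-150-5p, downward (log2 fold change -0.64, adjusted p 0.0252 by edgeR). In a fit of the 2 ages alone it was miR-342-3p, upward (0.49, adjusted p 0.0276 by edgeR). At 15 against 13.5 months, 1 was called under voom, RUVs with 1 factor and the miR-486 covariate, and 2 under library totals alone. At 16.5 against 13.5 months, 0 were called under library totals alone and 2 with the GC slope. At 16.5 against 15 months, 2 were called under library totals alone, RUVs with 1 factor, the miR-486 covariate and the GC slope, and 0 after thinning. Over all abundant microRNAs, these settings called 58.1% over age without the low-connectivity library, from 4.76% (library totals alone) to 35.2% at 16.5 against 12 months (2.85% of 1016 with no filter), 43.8% and 40% at 13.5 against 12, 80% and 26.7% at 15 against 12, from 63.8% to 72.4% at 15 against 13.5, 26.7% and 60% at 16.5 against 13.5, and at 16.5 against 15 months 62.9%, 37.1%, 54.3% and 56.2%, with 15.2% after thinning.

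Of the 2 members of the low filter, 0 were called in any comparison. Under library totals alone, 2 were called over age, at 15 against 12, at 15 against 13.5 and at 16.5 against 15 months. The miR-486 covariate gave 1 over age and in the same 3 pairs. The GC slope gave 1 over age, at 16.5 against 12 and at 16.5 against 13.5 months, and 2 at 16.5 against 15 months. RUVs with 1 factor gave 1 over age, and at 16.5 against 15 months 1 was called under RUVs with 1 factor, DESeq2, omission of the miR-486 rows and omission of the low-connectivity library. Shares of all low-filter microRNAs called were 52.2% over age, 52.8%, 45.8% and 34.5% under library totals alone, 60.6%, 31.6%, 48.1% and 35.9% with the miR-486 covariate, 59.1%, 29.6%, 38.3% and 36.2% with the GC slope, 39.4% over age with RUVs, and from 11.9% to 18.8% in the last 4 settings. These 2 members missed the filter of more than 10 reads and have no value there.

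Directions turned in values that did not pass in the main test. At 15 against 12 months, miR-150-5p was -0.64 under library totals alone, -0.57 under RUVs with 1 factor, -0.64 with the miR-486 covariate and -0.31 with the GC slope, and miR-342-3p was -0.41 under library totals alone. At 15 against 13.5 months, miR-342-3p was -0.055 under voom, -0.70 under library totals alone, -0.15 and -0.13 under RUVs with 1 and 2 factors, -0.066 with the log2 library total, -0.058 with no filter and -0.14 with the miR-486 covariate. At 16.5 against 13.5 months, miR-150-5p was -0.42 under voom, -0.16 under library totals alone, -0.18 under RUVs with 1 factor and -0.031 with the miR-486 covariate. After thinning, miR-155-5p was -0.54 at 13.5 and -0.052 at 16.5 against 12 months, and miR-342-5p was 0.30 at 15 against 12 months. miR-342-5p was -0.14 and -0.29 at 13.5 against 12 months under RUVs with 1 and 2 factors and -0.61 with the GC slope, and 0.14 at 15 against 12 months under voom. miR-155-5p was 0.069 at 15 against 12 months under RUVs with 2 factors. The cause was not tested in any of these.

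Leaving out each library in turn called from 1 to 2 abundant members over age, from 0 to 1 at 13.5 against 12 months, from 1 to 2 at 16.5 against 12 months and from 1 to 2 at 16.5 against 15 months, from 0 to 1 low members at 16.5 against 15 months, and from 1 to 5 of the 24 ratio comparisons. Values that changed sign ranged from -0.041 to 0.17 for miR-342-3p at 15 against 13.5 months, from -0.0070 to 0.32 for miR-150-5p at 16.5 against 13.5 months, and, for the ratio of the 2 miR-342 strands, from -0.013 to 0.39 at 13.5 against 12 months and from -0.18 to 0.22 at 16.5 against 13.5 months. Another pseudocount or a rank test changed no ratio call.

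The columns do not carry the replicate numbers of the labels, so the planned block on those was not run. They open with 10 numbers that recur at each age, and what these stand for is not stated. For libraries of the same number, the mean correlation of their deviations ran from -0.111 to 0.224 over the pairs of ages. For libraries of different numbers it ran from -0.032 to 0.025. The same-number mean was highest at 15 against 13.5 months (0.224 against -0.032). Of 10 same-number pairs, 3 to 5 were over 0.1, and 0 to 3 of 10 libraries correlated best with their own number. The deviations also hold differences such as the GC slope, so they cannot decide whether a number stands for 1 mouse. With that number as a replicate block, 1 of the 2 abundant members was called over age and 1 at 16.5 against 12 months, miR-342-3p in both. Of all 105, 62.9% and 21.9% were called there. miR-150-5p had adjusted p of 0.0648 and 0.0742 by edgeR. Depth limits miR-342-5p and miR-155-5p, whose median counts lay between 2.5 and 18.5.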
